A study of Homo sapiens with 6 samples.

Results

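The genes described here are 34 genes of glucose use: 16 enzymes of glycolysis, 3 forms of the bifunctional enzyme that sets fructose 2,6-bisphosphate, 4 genes that make or carry lactate, 5 genes of pyruvate dehydrogenase and its kinases, 4 enzymes of the pentose phosphate pathway and 2 phosphoglucomutases. They were chosen by name as a list of glucose metabolism genes, with earlier results of these data known. Every one of the 34 symbols matched an Ensembl ID among the 22091 gene IDs of the 6 count files. RNA was sequenced from HCCLM3, MHCC97H and MHCC97L, which are human hepatocellular carcinoma cell lines. In the treated condition, cells of each line received 2.5 ng/mL of the ligand TGF-β1 for 4 h. In the control condition, cells of the same line went without ligand over the same time. All cultures shared one serum-containing medium. MHCC97H and MHCC97L are clones of one parental tumour line picked for high and low metastatic potential, and HCCLM3 came from lung metastases of MHCC97H in mice, so the lines are related and are not independent tumours.

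Glycolysis splits glucose into pyruvate, which is then either reduced to lactate and exported or passed to the mitochondria through pyruvate dehydrogenase. The pentose phosphate pathway branches off at glucose 6-phosphate and yields NADPH and ribose 5-phosphate. Many steps have several forms encoded by separate genes, and liver tumours are known for losing the forms typical of adult hepatocytes. TGF-β1 signals through receptor serine kinases and SMAD transcription factors.

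Each line and condition gave 1 library, and nothing in the labels tells whether treated and control cells of a line were grown as separate cultures. The spread behind a treatment p-value is therefore the spread of the response between 3 lines. The line comparisons come from the same fit, where the treated and the control library of a line stand as its samples. Their p-values rest on that same spread, which may be technical in part, and not on replicate cultures of a line. Totals were 21257080, 23242862 and 23085194 expected counts after TGF-β1 in HCCLM3, MHCC97H and MHCC97L, against 18485041, 20407269 and 22854982 in their controls. The limit that a count of 0 allows, taken as 3 counts, lay between 0.129 and 0.162 CPM (counts scaled to library size) in the different libraries, for counting error only. All 7 genes written down as a check of the ligand were higher after TGF-β1, with a median log2 change of 1.88. That list was written with earlier results of these data known, so it describes the response and is no independent check. Levels below are CPM scaled by TMM, a normalisation that aligns the bulk of genes between libraries. Changes are log2 differences with their standard error (SE), and adjusted p-values come from the quasi-likelihood test of edgeR, adjusted by Benjamini-Hochberg over all 14176 genes tested.

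The labelled cell type was set against 11 hepatocyte and liver tumour genes. KRT8 and KRT18, which are epithelial keratins, were among the abundant genes in all 6 libraries, with KRT8 between 4294 and 6571 CPM. Albumin (ALB) was at 1.26, 22.5 and 12.4 CPM after TGF-β1 in HCCLM3, MHCC97H and MHCC97L, against 1.43, 22.9 and 8.87 CPM in the controls, so this defining product of hepatocytes was low in all lines and lowest in HCCLM3. Over the 6 libraries HNF4A lay between 79.0 and 208 CPM, TF between 13.5 and 95.5 CPM and APOB between 0.581 and 14.3 CPM. AFP lay between 3.24 and 5.29 CPM, APOA1 between 0.212 and 2.98 CPM and TTR between 0.531 and 0.755 CPM. FGB and SERPINA1 were at most 0.968 CPM in HCCLM3 and at 12.6 CPM or more in the other lines. The 19 markers of fibroblasts, endothelium and leukocytes together summed to at most 0.00691% of the counts in any library. After TGF-β1, 4 of the 11 hepatocyte genes rose and 1 fell, COL1A1 rose among 3 tested fibroblast markers, PECAM1 fell among 3 tested endothelium markers, and none of 3 tested leukocyte markers passed. Their part in the changes of the members was not tested. The 13 mitochondrially encoded genes took 6.55%, 3.67% and 5.03% of counts after TGF-β1 in HCCLM3, MHCC97H and MHCC97L, against 4.76%, 6.17% and 6.15% in the controls, so this share was higher after the ligand in HCCLM3 and lower in the other two lines.

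Enzymes of the lower part of glycolysis were among the most abundant mRNAs of these cells. GAPDH, which oxidises glyceraldehyde 3-phosphate, had 6368, 6401 and 6961 CPM after TGF-β1 in HCCLM3, MHCC97H and MHCC97L, against 6167, 5948 and 6188 CPM in the controls. It stood at rank 9 of the 22091 gene IDs by mean CPM. PKM, the pyruvate kinase of proliferating cells and muscle, had 3188, 4579 and 4114 CPM after TGF-β1, against 3179, 3684 and 3587 CPM in the controls. ENO1, the widely expressed enolase, had 2203, 2158 and 2442 CPM after TGF-β1, against 2105, 1956 and 2195 CPM in the controls. On the TMM scale, treated and control libraries did not overlap for GAPDH, and they overlapped for PKM and ENO1. With plain library totals GAPDH overlapped too, at 0.619% of counts in treated HCCLM3 against 0.628% in its control. For this and later statements on overlap, the share of all genes without overlap is not given.

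ALDOA, the aldolase of muscle and most tumours, had 2117, 2405 and 2437 CPM after TGF-β1 in HCCLM3, MHCC97H and MHCC97L, against 2106, 1819 and 2056 CPM in the controls. PGK1, the first enzyme of the pathway to make ATP, had 1468, 1342 and 1409 CPM after TGF-β1, against 1481, 1307 and 1333 CPM in the controls. TPI1, which interconverts the triose phosphates, had 1123, 1336 and 1357 CPM after TGF-β1, against 1140, 1057 and 1094 CPM in the controls. The conditions overlapped for PGK1 and TPI1 when all 3 lines were pooled, and for ALDOA they did not. With plain library totals ALDOA changed by -0.06 in HCCLM3, so its conditions overlapped on that scale. Per kilobase of annotated exon, GAPDH had the highest mean level of the set at 2126 CPM per kb, followed by ALDOA at 551 and TPI1 at 439. By the length of the longest transcript GAPDH stayed first at 3381, followed by PKM at 1234, ENO1 at 854, ALDOA at 851 and TPI1 at 672. The order after GAPDH thus depended on the length used.

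**Figure D1:**
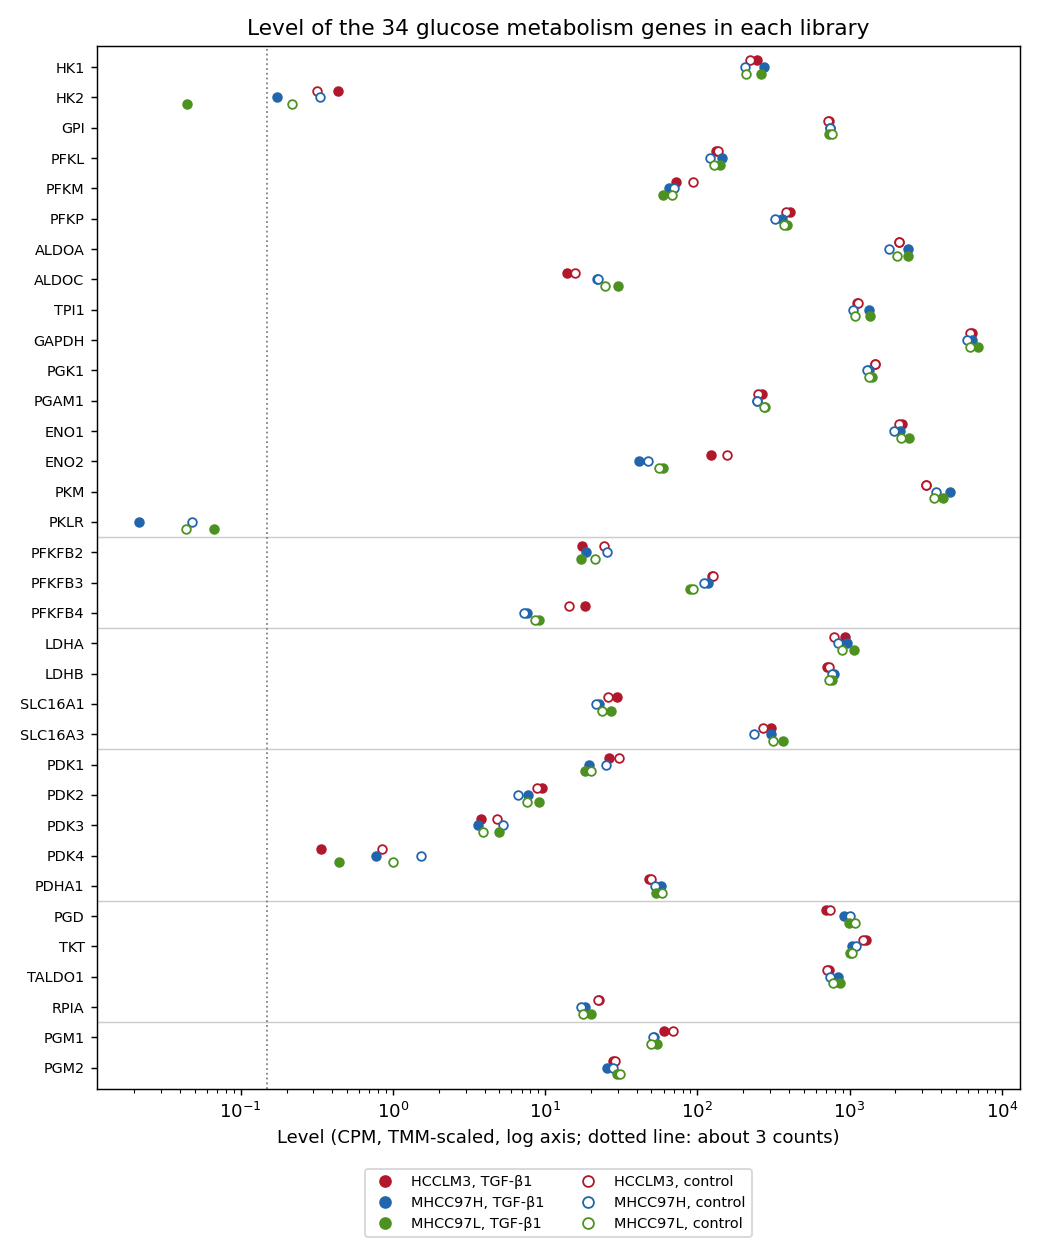
Level of each of the 34 genes in the 6 libraries, in TMM-scaled CPM on a log axis, with filled points after TGF-β1, open points for controls and a dotted line near 3 counts. GAPDH, PKM, ENO1 and ALDOA lie at the right edge, PKLR, HK2 and PDK4 at the left, and ENO2, ALDOC and PFKFB4 show HCCLM3 apart from the other lines. The HCCLM3 points of PKLR are at 0 and cannot be drawn on a log axis.

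At several steps 1 of the forms on the list made up most of the counts per kilobase. Shares are of counts per kilobase of exon among the forms of an enzyme that are members, given as the range over the 6 libraries. HK1, the ubiquitous hexokinase, made up 99.8% or more of the HK1 and HK2 total in every library. HKDC1, a hexokinase that is not a member, was abundant too, with 177, 219 and 212 CPM after TGF-β1 in HCCLM3, MHCC97H and MHCC97L, against 175, 178 and 194 CPM in the controls. With HKDC1 in the total, HK1 held 42.0% to 48.5% and HKDC1 51.5% to 57.9%, or 49.7% to 56.2% and 43.7% to 50.3% by the length of the longest transcript, so which of the 2 was higher depended on the length used. ALDOA made up 98.4% to 99.1% of the ALDOA and ALDOC total. PFKP, the platelet form of phosphofructokinase, held 74.0% to 77.3%, ahead of PFKL, the liver form, with 13.6% to 16.4% and PFKM, the muscle form, with 7.73% to 11.8%. PFKFB3, the form of the bifunctional enzyme with the strongest kinase activity, held 81.1% to 86.2% of its family.

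Lactate dehydrogenase was less one-sided. LDHB, the heart form of lactate dehydrogenase, held 59.7% to 65.9% of the per-kilobase counts, and LDHA, the muscle form, held the rest. With the length of the longest transcript in place of all exons, LDHB held 52.8% to 59.3%. Before division by length, LDHA had more counts than LDHB in every library. LDHB had 715, 791 and 767 CPM after TGF-β1 in HCCLM3, MHCC97H and MHCC97L, against 730, 768 and 729 CPM in the controls, and the levels of LDHA are given below. The larger share of LDHB thus rested on the lengths used. SLC16A3 (MCT4), the exporter of lactate in glycolytic cells, held 86.0% to 88.9% against SLC16A1 (MCT1), the carrier that also imports lactate.

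PKLR, the pyruvate kinase of adult liver, was at or under 3 counts in every library. HK2, the hexokinase that many tumours switch on, had 9, 4 and 1 counts after TGF-β1 in HCCLM3, MHCC97H and MHCC97L, against 6, 7 and 5 counts in the controls. Both genes were too low for the filter on counts, and no change is given for them. The other 32 genes were tested. In bulk RNA, a gene that is on in fewer cells and a gene with less RNA per cell cannot be told apart.

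**Figure D2:**
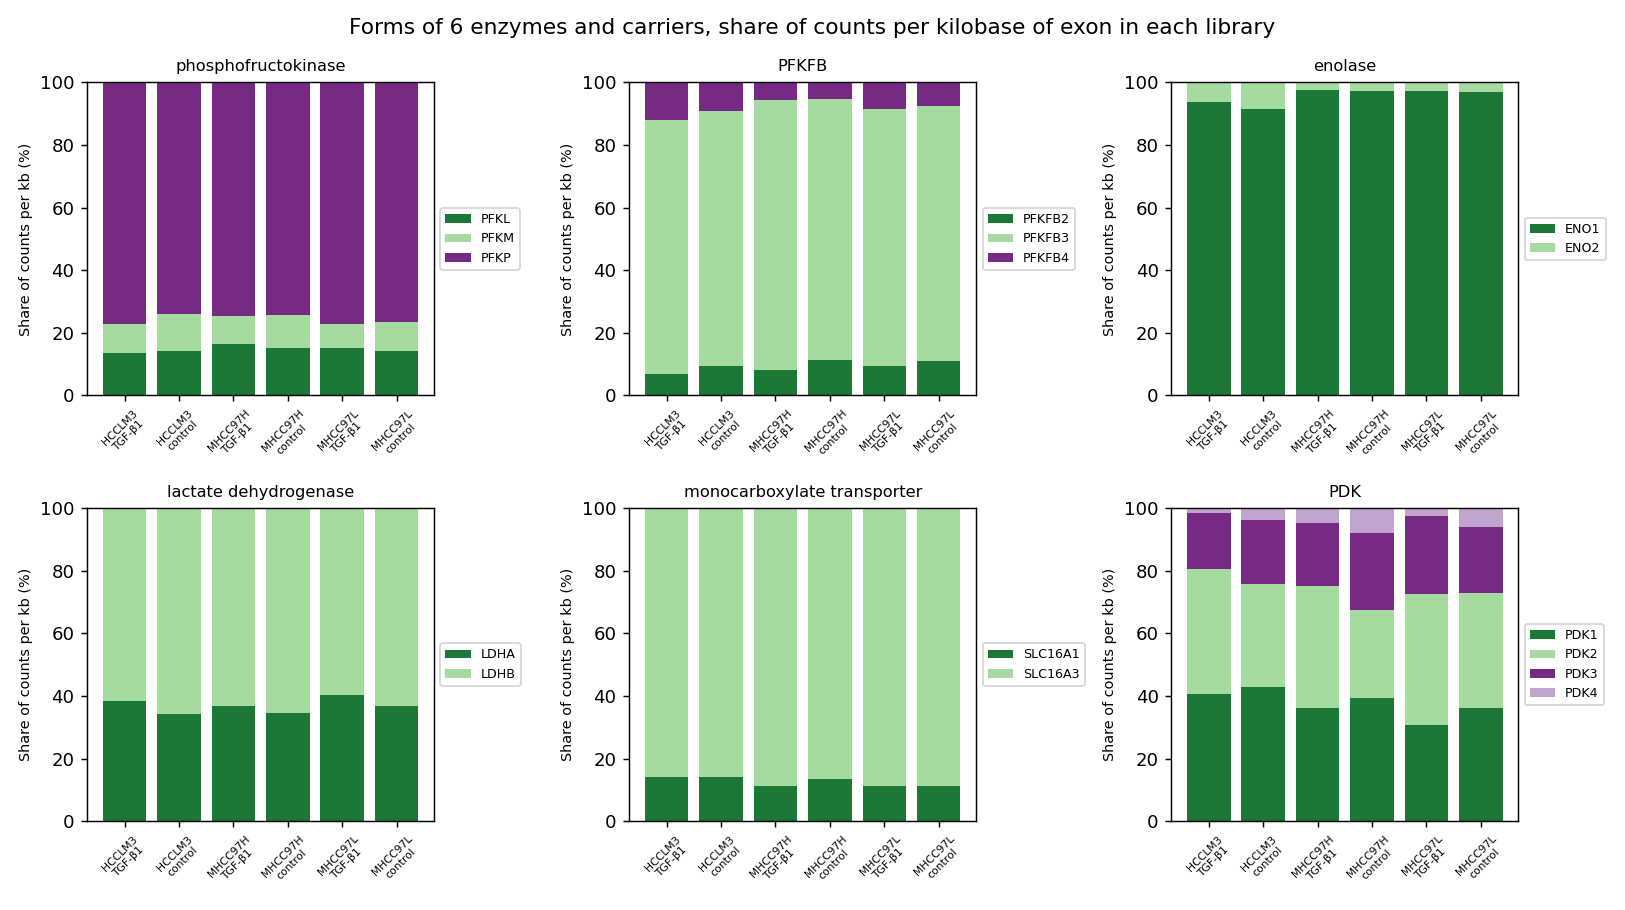
Share of each form in the per-kilobase counts of 6 enzymes and carriers, as stacked bars from 0% to 100%, with 1 bar per library and TGF-β1 left of control in each line. PFKP, PFKFB3, ENO1 and SLC16A3 dominate their families, the part held by ENO2 is larger in HCCLM3, and the part held by LDHA is larger after TGF-β1 in each line.

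TGF-β1 changed 5 of the 32 tested genes at an adjusted p of 0.05, with 3 higher and 2 lower. That is 15.6% of the members tested, against 14.4% of all 14176 genes, so the share was close to the background. Higher calls made up 9.38% of members against 7.79% of all genes, and lower calls 6.25% against 6.65%. The median log2 change was 0.03 over the members and -0.003 over all genes tested, with 19 members above 0 and 13 below. Over all genes tested, 49.6% lay above 0. The 3 genes that rose were the hexokinase gene HK1, the lactate dehydrogenase gene LDHA and the lactate exporter gene SLC16A3. The genes that fell were PFKFB2 and PDK4, which encode a form of the bifunctional enzyme and a kinase that shuts off pyruvate dehydrogenase.

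HK1 traps glucose in the cell as glucose 6-phosphate and sits on mitochondria (ENSG00000156515.21, chromosome 10, 69269984 to 69401884, plus strand of GRCh38). It had 246, 273 and 261 CPM after TGF-β1 in HCCLM3, MHCC97H and MHCC97L, against 222, 207 and 208 CPM in the controls. Every treated library lay above every control. The fitted change was 0.29 (SE 0.071), a 1.22-fold rise, with an adjusted p of 0.0288 by edgeR's quasi-likelihood test. Within the lines it came to 0.15 in HCCLM3, 0.40 in MHCC97H and 0.32 in MHCC97L.

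LDHA reduces pyruvate to lactate (ENSG00000134333.13, chromosome 11, 18394388 to 18408425, plus strand). It had 929.7, 963 and 1076 CPM after TGF-β1 in HCCLM3, MHCC97H and MHCC97L, against 786, 846 and 889 CPM in the controls, again with no overlap between conditions. The change was 0.23 (SE 0.063), a 1.18-fold rise, with an adjusted p of 0.0389 by edgeR's quasi-likelihood test. The lines lay close together, at 0.24 in HCCLM3, 0.19 in MHCC97H and 0.28 in MHCC97L. LDHB did not pass, with a change of 0.03 (SE 0.063), and the share of LDHA in the per-kilobase counts of both was 38.5%, 36.9% and 40.3% after TGF-β1, against 34.1%, 34.6% and 36.9% in the controls.

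SLC16A3 moves lactate out of the cell together with a proton (ENSG00000141526.15, chromosome 17, 82228397 to 82261129, plus strand). It had 306, 305 and 363 CPM after TGF-β1 in HCCLM3, MHCC97H and MHCC97L, against 269, 235 and 313 CPM in the controls. Each line was higher after the ligand, although the control of MHCC97L lay above the treated libraries of the other two lines. The change was 0.26 (SE 0.067), a 1.20-fold rise, with an adjusted p of 0.0361 by edgeR's quasi-likelihood test. SLC16A1 had a change of 0.15 (SE 0.081) and did not pass.

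PFKFB2, the form of the bifunctional enzyme known from heart, makes the activator of phosphofructokinase (ENSG00000123836.14, chromosome 1, 207034366 to 207081024, plus strand). It had 17.5, 18.6 and 17.3 CPM after TGF-β1 in HCCLM3, MHCC97H and MHCC97L, against 24.5, 25.4 and 21.3 CPM in the controls. The conditions did not overlap. The change was -0.41 (SE 0.087), with a fold of 0.753 and an adjusted p of 0.0171 by edgeR's quasi-likelihood test. Its sister forms did not pass: PFKFB3 had a change of -0.01 (SE 0.066) and PFKFB4 one of 0.18 (SE 0.11).

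PDK4, the starvation-induced pyruvate dehydrogenase kinase, was rare (ENSG00000004799.7, chromosome 7, 95583499 to 95596491, minus strand). It had 7, 18 and 10 counts after TGF-β1 in HCCLM3, MHCC97H and MHCC97L, against 16, 32 and 23 counts in the controls. On the CPM scale this was 0.339, 0.773 and 0.444 after TGF-β1, against 0.85, 1.52 and 1.0 in the controls, with no overlap between conditions. The change was -1.11 (SE 0.32), with an adjusted p of 0.0492 by edgeR's quasi-likelihood test, just inside the threshold. At these counts the interval of the change within HCCLM3, for counting error alone, ran from -2.85 to 0.04. The more abundant PDK1 had 26.2, 19.5 and 18.4 CPM after TGF-β1, against 30.8, 25.3 and 20.0 CPM in the controls, and its change of -0.24 (SE 0.088) missed the threshold with an adjusted p of 0.0988 by the same test.

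**Figure D3:**
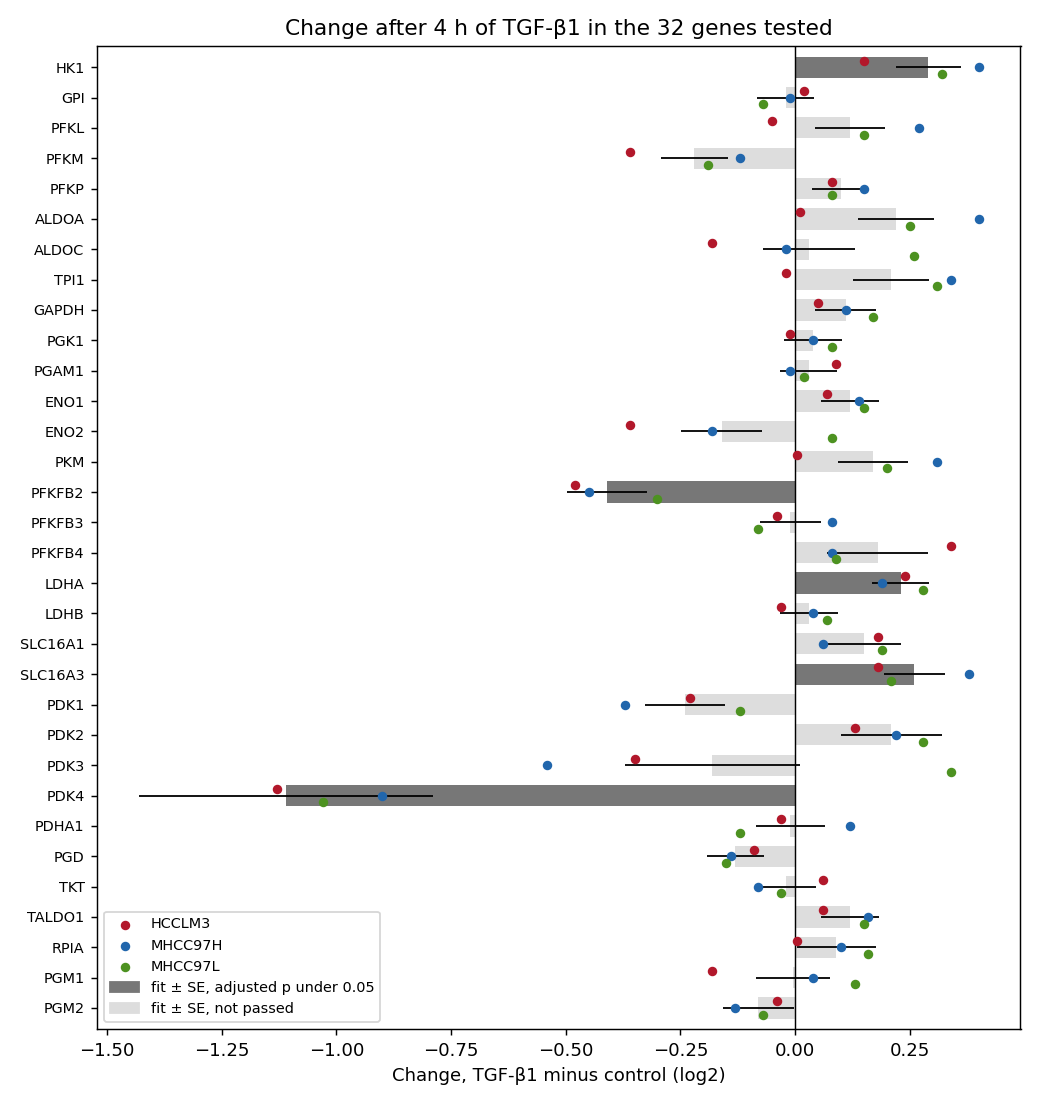
Change after TGF-β1 (log2, TGF-β1 minus control) of the 32 tested genes, with bars for the fit and its SE, dark where the adjusted p was under 0.05, and points for each line. HK1, LDHA and SLC16A3 are dark to the right and PFKFB2 and PDK4 to the left, and for ALDOA, TPI1 and PKM the HCCLM3 point lies near 0 while the MHCC97 points lie between 0.20 and 0.40.

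All 5 calls depended on which lines were in the fit. Without MHCC97L none of the members passed, and the same held without MHCC97H. Without HCCLM3, 8 passed: HK1, LDHA, SLC16A3 and PFKFB2 as before, plus PFKL, ALDOA, TPI1 and PKM, all 4 of them higher after TGF-β1. Those 8 are 25.0% of the 32 members, against 27.7% of all genes called in that fit, and the fits without MHCC97L and without MHCC97H called 4.29% and 6.86% of all genes. The scaling also mattered for the genes that rose. With plain library totals in place of TMM, HK1, LDHA and SLC16A3 kept a positive change but no longer passed, and 3 members were called, PFKM, PFKFB2 and PDK4, all of them lower. Over all genes, 53.9% of the calls were higher with TMM, 44.2% with upper quartiles and 37.2% with library totals, and the median of all genes was -0.05 with library totals.

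In the main trunk of glycolysis the changes were larger in the MHCC97 lines than in HCCLM3 for several genes, and none of these differences passed a test. ALDOA changed by 0.01 in HCCLM3, 0.40 in MHCC97H and 0.25 in MHCC97L, with an overall change of 0.22 (SE 0.083) and an adjusted p of 0.117 by edgeR's quasi-likelihood test. For TPI1 the values were -0.02 in HCCLM3, 0.34 in MHCC97H and 0.31 in MHCC97L, and for PKM they were 0.004, 0.31 and 0.20 in the same order. The overall changes were 0.21 (SE 0.083) for TPI1 and 0.17 (SE 0.077) for PKM, and neither passed. GAPDH at 0.11 (SE 0.067), ENO1 at 0.12 (SE 0.064) and PGK1 at 0.04 (SE 0.063) did not pass either.

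A fit with a separate response for HCCLM3, added after seeing the line values, tested this difference directly. It called 1.59% of all genes, 0.769% with a higher and 0.818% with a lower response in HCCLM3, and 0 of the 32 members by edgeR's quasi-likelihood test, the only tool run for it. At an unadjusted p under 0.05 there were 5 members, which is 15.6% against 14.2% of all genes: TPI1 at -0.35 (SE 0.11), ALDOA at -0.32 (SE 0.11), ENO2 at -0.31 (SE 0.13), PFKL at -0.26 (SE 0.12) and PKM at -0.25 (SE 0.11), where a negative value means a lower response in HCCLM3 than in the mean of MHCC97H and MHCC97L. Of the 32 members, 9 lay above 0 and 23 below, while 48.1% of all genes lay above 0. The median was -0.10 over the members and -0.01 over all genes. The fit leaves 1 residual degree of freedom.

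Summed over the 34 genes, the set took 2.28%, 2.53% and 2.54% of all counts after TGF-β1 in HCCLM3, MHCC97H and MHCC97L, against 2.35%, 2.33% and 2.37% in the controls. As log2 changes these were -0.04 in HCCLM3, 0.12 in MHCC97H and 0.10 in MHCC97L. On the TMM scale they were 0.03, 0.16 and 0.15, so the direction in HCCLM3 flipped with the scaling while both MHCC97 lines stayed above 0. On library totals the mitochondrially encoded share, given above, moved the opposite way in each line, and its part in these sums was not tested. With 1 library per condition in each line, these sums carry no test.

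Within single lines, a change of 1.25-fold or more at 5 CPM or more was counted, with no test. In HCCLM3, 1 of 30 members was that much higher, against 8.75% of all genes, and 3 were that much lower, against 8.93%. The higher one was PFKFB4 and the lower ones were ENO2, PFKFB2 and PFKM. In MHCC97H, 4 of 31 were higher (TPI1, SLC16A3, ALDOA and HK1), against 16.3% of all genes, and 3 were lower (PDK3, PFKFB2 and PDK1), against 15.4%. In MHCC97L only HK1 of 30 members was that much higher, against 11.5% of all genes, and none was lower, against 10.5%. The members' shares lay below those of all genes in each case but the lower calls in HCCLM3, where they made up 10.0%.

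None of the 4 pentose phosphate genes passed for TGF-β1. PGD, the second dehydrogenase of the pathway and a source of NADPH, had 697, 915 and 987 CPM after TGF-β1 in HCCLM3, MHCC97H and MHCC97L, against 743, 1011 and 1092 CPM in the controls. It was lower after the ligand in each line, yet the change of -0.13 (SE 0.062) had an adjusted p of 0.204 by edgeR's quasi-likelihood test. The transketolase gene TKT was at -0.02 (SE 0.065), the transaldolase gene TALDO1 at 0.12 (SE 0.063) and RPIA, ribose 5-phosphate isomerase, at 0.09 (SE 0.086). The phosphoglucomutases PGM1 and PGM2, which link glucose 6-phosphate to glycogen and to nucleotide sugars, and PDHA1, the catalytic subunit gene of pyruvate dehydrogenase, also did not pass.

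The promoters of genes that moved are shown for the 3 that rose and for PDK4. Glycolytic genes are known for the core ACGTG, which hypoxia-inducible factors bind, and for the E-box CACGTG, which MYC and the carbohydrate response factors bind. The bases come from the RefSeq promoter table of GRCh38.p14 and run from 5′ to 3′ on the gene's own strand. Capitals mark each ACGTG or CACGT, and CACGTG holds both in overlap.
HK1, chr10:69269750-69269983, plus strand, upstream of the gene: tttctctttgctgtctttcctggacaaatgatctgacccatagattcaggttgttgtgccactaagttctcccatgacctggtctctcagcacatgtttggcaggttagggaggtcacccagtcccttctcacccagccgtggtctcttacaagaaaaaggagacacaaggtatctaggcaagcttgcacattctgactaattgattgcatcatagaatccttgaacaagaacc
LDHA, chr11:18394313-18394387, plus strand, upstream of the gene: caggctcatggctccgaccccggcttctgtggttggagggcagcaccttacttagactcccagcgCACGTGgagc
LDHA, chr11:18394472-18394501, plus strand, inside an annotated first exon (5′ UTR): ctcaCACGTGggttcccgCACGTccgccgg
SLC16A3, chr17:82228792-82229031, plus strand, between exons at the 5′ end of the gene: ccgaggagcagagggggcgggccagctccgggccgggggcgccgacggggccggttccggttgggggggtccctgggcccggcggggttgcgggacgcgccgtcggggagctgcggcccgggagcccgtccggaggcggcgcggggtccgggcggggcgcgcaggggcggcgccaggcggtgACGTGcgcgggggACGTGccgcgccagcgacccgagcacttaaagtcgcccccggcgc
PDK4, chr7:95596517-95596766, minus strand, upstream of the gene and in part under the antisense gene AC002451.1: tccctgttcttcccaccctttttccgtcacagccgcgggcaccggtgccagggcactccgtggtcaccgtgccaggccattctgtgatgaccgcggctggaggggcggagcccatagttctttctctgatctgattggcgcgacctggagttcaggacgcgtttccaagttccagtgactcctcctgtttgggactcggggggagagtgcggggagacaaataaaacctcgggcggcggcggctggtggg

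The LDHA stretches hold CACGTG once each, and the one inside the exon holds a further CACGT. The SLC16A3 stretch holds ACGTG at 2 places, whereas the HK1 and PDK4 stretches hold none of these letters. RefSeq lists several starts for 3 of these genes, with 7 windows for HK1, 5 for SLC16A3 and 2 for LDHA, and the other 4 windows of SLC16A3 held no core. Across all 35116 windows of 250 bases before a start, 18.5% held the core on either strand. Of the 63 windows of the 32 members that the table lists, 23 (36.5%) held it, from 20 genes. The SMAD-binding letters CAGAC or GTCTG were in 38.0% of all windows and in 19 of the 63 member windows. The E-box was in 6.34% of all windows and in 9 member windows. The AP-1 site TGACTCA or TGAGTCA was in 4.2% of all windows and in 3 member windows, from HK1 and ENO2. The HK1 windows with SMAD or AP-1 letters are not the one printed. A match of letters describes the window and is not a bound site.

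Genes around the set gave a wider view of glucose use after TGF-β1. Of 8 tested genes of the SLC2A (GLUT) transporter family, 5 rose and none fell, with a median change of 0.45. Of all genes tested, 7.79% rose and 6.65% fell. SLC2A1 (GLUT1), the basal transporter of most tumours, had 581, 499 and 519 CPM after TGF-β1 in HCCLM3, MHCC97H and MHCC97L, against 309, 232 and 291 CPM in the controls. Its change of 0.95 (SE 0.073) had an adjusted p of 0.000135 by edgeR's quasi-likelihood test and compares with 0.29 for HK1, the member with the largest rise. SLC2A3 (GLUT3), a transporter of high affinity, rose by 2.13 (SE 0.28), with 3.34, 6.71 and 33.8 CPM after TGF-β1 against 1.73, 1.46 and 5.81 CPM in the controls. SLC2A8, SLC2A12 and SLC2A13 also rose. SLC2A2 (GLUT2), the transporter of adult hepatocytes, was at or under 3 counts in every library.

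Few enzymes outside the 34 passed. Among 8 tested genes for other forms and neighbours of glycolysis none passed. The smallest p-values belonged to ENO3, the muscle enolase, at 0.62 (SE 0.18, edgeR adjusted p = 0.0533), the hexokinase relative HKDC1 at 0.15 (SE 0.073) and BPGM, which makes 2,3-bisphosphoglycerate, at 0.21 (SE 0.13). Of 8 other pentose phosphate genes tested, PGLS, the lactonase of the pathway, rose by 0.42 (SE 0.10, edgeR adjusted p = 0.0288). TIGAR and PRPS1 came next and did not pass, at 0.24 (SE 0.091) and 0.14 (SE 0.070).

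Pyruvate carboxylase (PC), which feeds oxaloacetate to the citrate cycle and to gluconeogenesis, rose by 0.25 (SE 0.067) and was the only one of 9 further pyruvate genes to pass. Of 4 gluconeogenesis genes tested, G6PC3, the widely expressed glucose 6-phosphatase, rose by 0.24 (SE 0.065). The hepatic gene PCK1 had 0 counts in all libraries. Of 12 glycogen genes tested, GBE1, the branching enzyme, fell by 0.27 (SE 0.075). None of the 20 citrate cycle genes passed, and MDH2, FH and SUCLG2 had the smallest p-values with changes of 0.18, -0.17 and -0.14. Among 15 regulators, EPAS1 (HIF-2α) rose by 0.53 (SE 0.071), MLXIP, a glucose-sensing transcription factor, by 0.52 (SE 0.081) and PRKAA2, a catalytic subunit of AMPK, by 0.37 (SE 0.099), whereas MYC fell by 0.26 (SE 0.073).

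Without regard to the ligand, HCCLM3 stood apart from both MHCC97 lines in ENO2, PFKFB4, ALDOC, PGD, PDK1, PFKM and PGM1, which passed in both comparisons. Between HCCLM3 and MHCC97H, 10 of the 32 members passed, which is 31.2% against 27.2% of all genes. Of these, 7 were higher in HCCLM3 (21.9% of members against 13.3% of all genes) and 3 lower (9.38% against 13.9%). Between HCCLM3 and MHCC97L, 9 passed, which is 28.1% against 29.8% of all genes. Here 7 were higher (21.9% against 15.0%) and 2 lower (6.25% against 14.8%). Both totals were near the background. By direction, higher calls lay above it and lower calls below it, which was not tested. Called or not, 19 of the 32 members lay above 0 against MHCC97H and 14 against MHCC97L. MHCC97H and MHCC97L were not told apart by any member with edgeR's quasi-likelihood test, against 2.45% of all genes, 1.37% higher and 1.09% lower in MHCC97H. At an unadjusted p under 0.05 that comparison had 5 members, which is 15.6% against 15.8% of all genes, DESeq2 called 1 (SLC16A3, lower in MHCC97H) and limma-voom called 0. The comparisons with HCCLM3 share its libraries, so their values are given side by side.

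ENO2, the neuronal enolase, showed the largest differences of the set between lines. It had 123 and 157 CPM in the treated and control libraries of HCCLM3, against 41.7 and 47.4 CPM in those of MHCC97H and 59.1 and 55.9 CPM in those of MHCC97L. Both HCCLM3 libraries lay far above the other 4. The difference was 1.65 (SE 0.11, 3.13-fold, edgeR adjusted p = 1.92e-05) against MHCC97H and 1.27 (SE 0.11, 2.42-fold, edgeR adjusted p = 5.95e-05) against MHCC97L. As a share of enolase per kilobase, ENO2 held 6.43% and 8.44% in HCCLM3 after TGF-β1 and in control, against 2.33% to 3.04% in the libraries of the other lines.

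ALDOC, the brain aldolase, ran the opposite way. It had 13.9 and 15.8 CPM in the treated and control libraries of HCCLM3, against 22.0 and 22.3 CPM in MHCC97H and 29.9 and 24.9 CPM in MHCC97L, with no overlap between HCCLM3 and the others. The difference was -0.58 (SE 0.13) against MHCC97H and -0.89 (SE 0.13) against MHCC97L, with edgeR adjusted p of 0.00997 and 0.000972. PFKFB4, the bifunctional enzyme first known from testis and induced by hypoxia, had 18.4 and 14.4 CPM in the treated and control libraries of HCCLM3, against 7.65 and 7.24 CPM in MHCC97H and 9.15 and 8.57 CPM in MHCC97L. HCCLM3 was higher by 1.14 (SE 0.13) than MHCC97H and by 0.88 (SE 0.13) than MHCC97L, with edgeR adjusted p of 0.000374 and 0.00112.

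PFKFB3 had 124 and 127 CPM in the treated and control libraries of HCCLM3, against 117 and 111 CPM in MHCC97H and 89.4 and 94.2 CPM in MHCC97L. It passed against MHCC97L, at 0.45 (SE 0.082, edgeR adjusted p = 0.00316), and not against MHCC97H, at 0.14 (SE 0.081). PDK1, which restrains pyruvate dehydrogenase, was higher in HCCLM3 by 0.35 (SE 0.11) than in MHCC97H and by 0.56 (SE 0.11) than in MHCC97L. Of the lower-abundance steps, PFKM and PGM1 were also higher in HCCLM3 in both comparisons, by 0.28 and 0.38 for PFKM and by 0.32 and 0.32 for PGM1 against MHCC97H and MHCC97L.

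Of the pentose phosphate members, only PGD passed against both MHCC97 lines. It had 697 and 743 CPM in the treated and control libraries of HCCLM3, against 915 and 1011 CPM in MHCC97H and 987 and 1092 CPM in MHCC97L. It was lower in HCCLM3 by a difference of -0.42 (SE 0.076) from MHCC97H and -0.53 (SE 0.076) from MHCC97L, with edgeR adjusted p of 0.00365 and 0.00096. Outside the members, the pentose phosphate gene RPE was higher in HCCLM3, by 0.55 than in MHCC97H and by 0.58 than in MHCC97L (SE 0.096 for each). PRPS2 was higher by 0.48 and 0.34 (SE 0.11 for each) in the same order, and both genes passed in both comparisons. TKT, which works further down the same pathway, had 1277 and 1229 CPM in the treated and control libraries of HCCLM3, against 1037 and 1099 CPM in MHCC97H and 1009 and 1032 CPM in MHCC97L. It was higher in HCCLM3 by 0.30 (SE 0.079) than in MHCC97L and passed, and by 0.23 (SE 0.079) than in MHCC97H, where it did not. RPIA and SLC16A1 were higher in HCCLM3 than in MHCC97H, by 0.34 (SE 0.11) and 0.32 (SE 0.10). PKM was lower there, by a difference of -0.37 (SE 0.094).

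**Figure D4:**
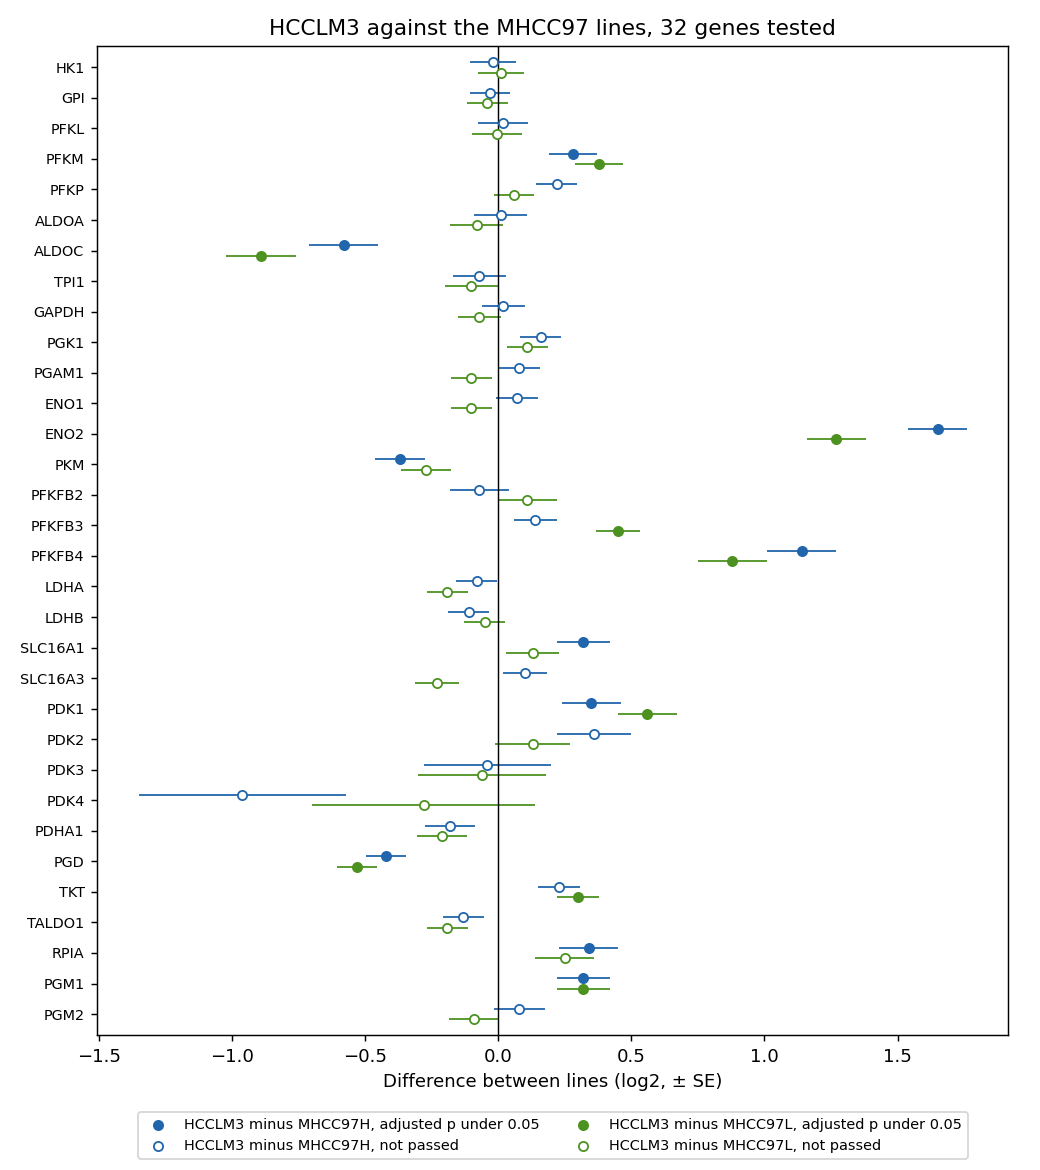
Difference between lines (log2, with SE) of the 32 tested genes, in blue for HCCLM3 minus MHCC97H and in green for HCCLM3 minus MHCC97L, filled where the adjusted p was under 0.05. ENO2 at 1.65 and 1.27 and PFKFB4 at 1.14 and 0.88 lie to the right, and ALDOC at -0.58 and -0.89 and PGD at -0.42 and -0.53 to the left.

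The line calls rested partly on single libraries of MHCC97H and MHCC97L. Against MHCC97L, 5 members passed without its treated library and 3 without its control, against 9 with all libraries, and the share of all genes called was 14.2% and 14.4% in these fits. Against MHCC97H, 4 passed without its treated library and 6 without its control, with 19.2% and 22.0% of all genes called. Leaving out the treated or the control library of MHCC97L gave 4 in that comparison, with 21.5% and 21.0% of all genes called. ALDOC, ENO2 and PFKFB4 passed in both comparisons under all 13 alternative settings, and PGD did so against MHCC97H. Of the 11 hepatocyte and liver tumour genes, 10 passed as lower in HCCLM3 against MHCC97H and 9 against MHCC97L. Of all genes, 13.9% and 14.8% passed as lower in these comparisons. Markers of other cell types differed between the lines as well. Of 3 tested fibroblast markers, DCN (2.15 against MHCC97H and 2.33 against MHCC97L) and LUM (0.53 and 0.82) passed as higher in HCCLM3, and COL3A1, too low elsewhere to be tested, had 11.7 and 14.4 CPM in the treated and control libraries of HCCLM3, against at most 0.381 CPM in the other lines. Of 3 tested endothelium markers, PECAM1 (-1.88 and -1.84) and KDR (-1.69 and -0.77) passed as lower in HCCLM3 against MHCC97H and MHCC97L, and VWF (-1.66) against MHCC97L. Of 3 tested leukocyte markers, ITGAM (-0.54) passed as lower against MHCC97L. The part of all these markers in the line differences of the members was not tested.

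Some values may share reads with related or overlapping genes. The counts of 15 of the 34 members had decimals, as when a read is divided among genes. The annotation lists 62 pseudogenes of GAPDH, 13 of PGAM1, 6 of LDHA, 5 of PKM and 4 each of TPI1 and ENO1, and none of them has a row in the files. Of these genes, PGAM1 and ENO1 had counts with decimals, and GAPDH, LDHA, PKM and TPI1 had whole counts. Among the genes that passed for TGF-β1, exons of HK1, PFKFB2 and SLC16A3 overlap genes on the opposite strand (RPS15AP28, YOD1 and CSNK1D). The sources used here do not say whether counting used strand, so reads of such partners cannot be told apart.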

How the data were processed

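RNA of 6 libraries, 3 lines in 2 conditions, was sequenced by the authors, who deposited expected counts per gene with decimals for 1 library a file. Per the submitters' processing notes, the tools were Cuffdiff 1.3.0, Cufflinks 2.2.1 and TopHat2 2.1.1, and the build was hg38, with no roles stated. The counting tool and its use of strand are not given in the sources used here. Reads that match several genes can be divided among them, which blurs close copies.

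Of 22091 IDs, 19574 matched a symbol. Counts were rounded, which moved a library total by at most 134. The filter filterByExpr, on treatment, asked for expression in 3 libraries and left 14176 genes. TMM factors were 0.971 to 1.029. edgeR 4.0.16 (R 4.3.3, robust quasi-likelihood, Benjamini-Hochberg at 0.05) was fitted with cell line and treatment as terms, with 2 residual degrees of freedom. The smallest p of an exact test on 3 pairs is 0.25, so none was run on single genes. Line is the pairing: both libraries of a line come from the same line by the labels, and their deviations from the condition means correlated at 0.728 in HCCLM3, 0.456 in MHCC97H and 0.587 in MHCC97L. Changes within a line used a prior count of 2 and 95% exact conditional binomial intervals, which cover counting error only. The alternatives were RLE, upper quartile and library total scaling, no count filter, DESeq2 1.42.0, limma-voom 3.58.1, a non-robust fit, no line term, each library or line left out, and longest-transcript lengths. Loci and lengths came from GENCODE 29. Tables were made in Python 3.11.15. The fits were tested on simulated data.

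The members, the other lists and the tests were chosen with earlier results of these data known. Genes given in full passed for TGF-β1, or were among the 5 largest changes, the 6 highest or 3 lowest levels, or the 6 largest differences of a line comparison. Up to 3 genes with the smallest p were named from each other list. Further transporters, regulators and hepatocyte genes were named after their values were seen. The same held for COL3A1, PCK1, SLC2A2, PFKL, PFKM, TKT, RPIA, SLC16A1, PGM1, RPE and PRPS2.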

Additional observations from a re-analysis of the deposited data

Results flagged for a closer look

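For 3 members, single lines changed in opposite directions with counting intervals that excluded 0. The differences were not tested, each line had 1 library per condition, and the intervals cover counting error only. The share of all genes that met the same rule was not counted. PDHA1, the catalytic subunit gene of pyruvate dehydrogenase, changed by 0.12 in MHCC97H and by -0.12 in MHCC97L, with 57.5 and 53.9 CPM after TGF-β1 against 52.8 and 58.8 CPM in the controls. With library totals its changes were 0.08 and -0.17, and on the TMM scale its interval in MHCC97H began at only 0.01. TKT, which encodes transketolase, changed by 0.06 in HCCLM3, -0.08 in MHCC97H and -0.03 in MHCC97L, and the value in HCCLM3 was -0.01 with library totals. PGM1, which encodes phosphoglucomutase, changed by -0.18 in HCCLM3 and by 0.13 in MHCC97L, with 60.6 and 54.3 CPM after TGF-β1 against 68.8 and 49.4 CPM in the controls. With library totals its changes were -0.25 and 0.09, and on the TMM scale its interval in MHCC97L began at only 0.02.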

How the results depend on the processing

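For TGF-β1 the number of members called was 5 in the fit reported, 3 with library totals, 3 with DESeq2, 3 with a non-robust fit and 0 with no replicate block (no line term), and it ran from 0 to 8 when each line was left out. Over all genes the number was 2047, against 10 with no replicate block and 611 to 3971 with a line left out (611 without MHCC97L, 981 without MHCC97H, 3971 without HCCLM3). No member was called under all 11 alternatives. HK1 missed the threshold with library totals (adjusted p 0.0654), LDHA with upper quartiles, library totals and the non-robust fit (0.0571, 0.0932 and 0.0517), SLC16A3 with upper quartiles and library totals (0.0504 and 0.0832) and PFKFB2 with DESeq2 (0.0527). PDK4 missed it with no count filter, limma-voom, the non-robust fit and without HCCLM3 (0.0567, 0.0514, 0.0567 and 0.0553), and DESeq2 gave it no adjusted p. Over the alternatives the adjusted p ran from 0.00106 to 0.307 for HK1, 0.00551 to 0.452 for LDHA, 0.00504 to 0.535 for SLC16A3, 0.011 to 0.243 for PFKFB2 and 0.0419 to 0.392 for PDK4, and each of the 5 kept its direction throughout. Of the 32 members, 10 changed sign under some alternative, none of them called in the fit reported: ALDOC, PGK1, PGAM1 and LDHB, each at -0.02 with library totals, LDHB also at -0.003 with upper quartiles, and, with a line left out, ALDOC (-0.10 to 0.12), PFKFB3 (-0.06 to 0.02), GPI at 0.01, PDHA1 at 0.05, TKT at 0.01, PGM1 at 0.08 and PDK3 at 0.02. The cause was not tested. Fits with a line left out have 1 residual degree of freedom.

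Between MHCC97H and MHCC97L, leaving out 1 library gave 96 to 1486 calls over all genes and 0 to 3 among the members, and DESeq2 called 1 member. Between HCCLM3 and MHCC97L the ranges were 2060 to 4643 and 3 to 11. Between HCCLM3 and MHCC97H they were 2780 to 4417 and 4 to 9, and library totals gave 3785 and 5, against 3849 and 10 in the fit reported. A line left with 1 library is taken to vary like the others. With the longest transcript as length, the mean share over the 6 libraries was 80.4% for PFKFB3, 56.4% for LDHB, 91.5% for SLC16A3, 31.4% for PDK1 and 70.6% for PGM1, against 82.6%, 63.1%, 87.5%, 37.6% and 63.3% with all exons. PDK2 held 46.1% with the longest transcript and 36.5% with all exons, so the leading kinase form changed with the length. Depth limits HK2, PKLR and PDK4, which had at most 32 counts in a library.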
